A study of Mus musculus with 6 samples.

Results

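Pou4f3, Gfi1, Atoh1, Barhl1, Lhx3 and Rbm24 are regulators of hair cells, the sensory receptor cells of the inner ear, and these 6 genes were followed in the base of the cochlea of young and old mice. They were taken by gene symbol from the deposited tables, which hold 34395 gene entries, and each of the 6 had an entry. Of these, 5 had enough counts to be tested and Atoh1 had not. The mice were of the C57BL/6J strain, in which hearing is lost early and first at high frequencies. RNA of 3 libraries labelled young and 3 labelled old was sequenced after removal of ribosomal RNA, and the labels name no treatment and no engineered allele. Ages, sex and the number of animals per library are not stated, so the p-values describe only how much these libraries vary, which may be technical variation.

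Atoh1 is the basic helix-loop-helix factor that starts hair cell differentiation in the embryo, and it is turned down as hair cells mature. Pou4f3, a POU homeodomain factor, and Gfi1, a zinc finger repressor, act after it and are needed for hair cells to survive, and in mice Gfi1 expression in hair cells depends on Pou4f3. Barhl1 and Lhx3 are homeodomain factors of hair cells, and loss of Barhl1 in mice leads to progressive hair cell degeneration. Rbm24 is an RNA-binding protein that controls splicing in hair cells and in muscle. Several of the 6 also act outside the ear, Gfi1 in precursors of granulocytes and lymphocytes, Lhx3 in the pituitary and in motor neurons, and Atoh1 and Barhl1 in the hindbrain.

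Gene counts per library ran from 26245416 in old 3 to 39433584 in young 2. Sex-linked RNA split the groups: Xist had 12613 to 18384 counts in young and 0 to 9 in old libraries, and the Y-linked Ddx3y had 0 counts in every young library and 868 to 1107 in old ones. Age and the sex-linked profile cannot be told apart in any comparison given here. All 20 core hair cell markers had counts in both groups, a low bar that does not by itself settle the tissue. They made up 0.0159% of the counts in old 2, the lowest share, and 0.0281% in young 3, the highest. Their summed level was 218, 267 and 326 in young 1, 2 and 3 and 159.7, 144 and 153 in old 1, 2 and 3, in CPM (counts per 1000000, with library totals scaled by the trimmed mean of M-values, TMM). Every old library lay below every young one. In bulk RNA fewer hair cells, less RNA per hair cell and a changed share of other tissue cannot be told apart. This holds for each of the 6 regulators, and markers of other cells, given below, also changed in level.

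Pou4f3 and Gfi1 fell in the old libraries, with TMM scaling each to about 0.5 of its young level. Barhl1, Lhx3 and Rbm24 did not pass the test, and none of the 6 rose. The test was the quasi-likelihood F test of edgeR, adjusted by the Benjamini-Hochberg method over all 20157 genes tested. At an adjusted p under 0.05 it called 54.2% of all tested genes, 27.3% as lower and 26.9% as higher in old. Read against that background, 2 of 5 tested regulators were lower. The CPM of the groups did not overlap for the same 2 genes, and did not overlap for 62.3% of all tested genes.

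**Figure D1:**
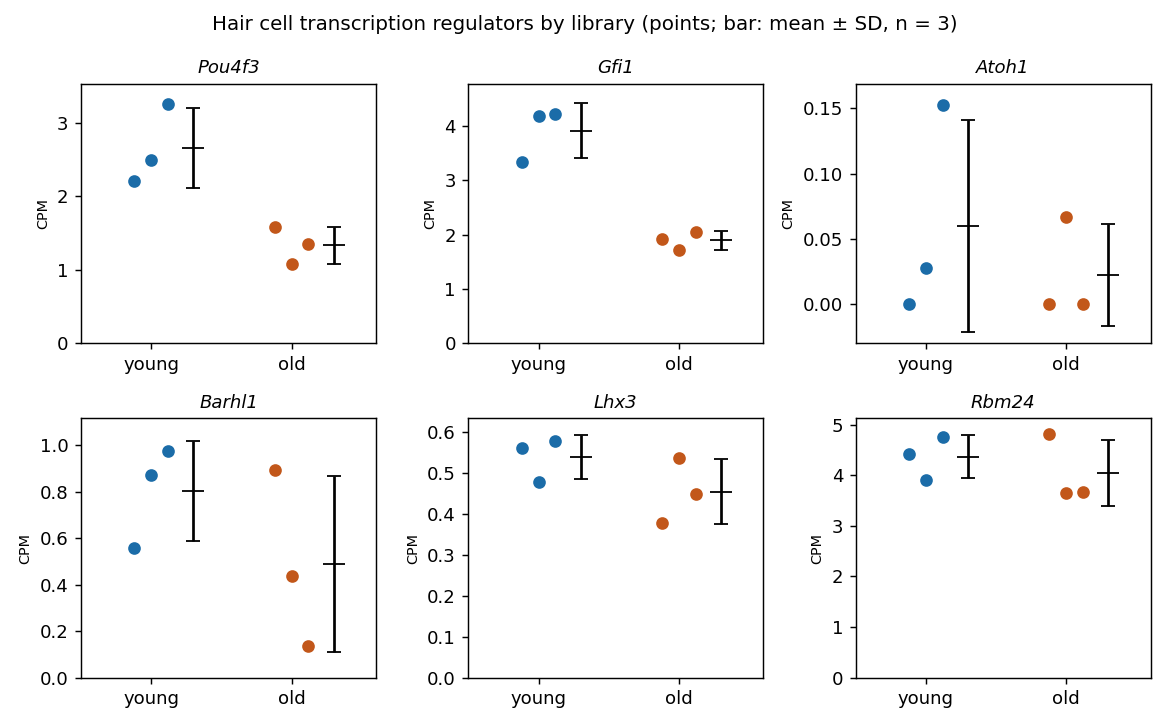
CPM of each regulator in each library (points, 3 per group), with the mean and SD. The old points of Pou4f3 and Gfi1 lie below all of their young points, while young and old points of the other 4 genes overlap.

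Pou4f3 (gene 18998, chromosome 18, 42394597 to 42396093, GRCm38.p6) has 2 exons and overlaps no other gene of the annotation. It had 79, 89 and 107 counts in young 1, 2 and 3 and 46, 32 and 39 in old 1, 2 and 3. In CPM these were 2.21, 2.50 and 3.26 for the young and 1.58, 1.07 and 1.35 for the old libraries. The highest old value lay below the lowest young value. The mean fell from 2.66 ± 0.540 to 1.33 ± 0.253 CPM (SD, n = 3 per group), a log2 fold change, old against young, of -0.99 ± 0.26 (SE; 95% interval -1.57 to -0.41; edgeR adjusted p = 0.00944). The two-sided exact permutation p was 0.1, the smallest that 3 against 3 libraries allow.

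Gfi1 (gene 14581, chromosome 5, 107716655 to 107725805) had 119, 149 and 139 counts in young 1, 2 and 3 and 56, 51 and 59 in old 1, 2 and 3. In CPM these were 3.33, 4.19 and 4.23 for the young and 1.92, 1.71 and 2.04 for the old libraries. The old libraries were close to each other, and none reached a young value. The mean fell from 3.92 ± 0.507 to 1.89 ± 0.167 CPM (SD, n = 3 per group), a log2 fold change of -1.05 ± 0.21 (95% interval -1.51 to -0.59; edgeR adjusted p = 0.00188). The exact permutation p was again 0.1. An antisense gene, A430072P03Rik, shares 101 of the 3187 exonic bases of Gfi1 in the annotation and has no entry under that symbol. Strandedness is not given, so reads of that stretch cannot be told apart.

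Blood cell markers moved in the same comparison as Gfi1, which developing granulocytes and lymphocytes also express. All 16 tested genes of neutrophils and their precursors fell, with a median log2 fold change of -3.43, against 0.01 over all tested genes. Their summed level was 896 to 1212 CPM in young libraries and 54.9 to 156 CPM in old ones, and none of them was at 0 in the old group. S100a8, a calcium-binding protein of neutrophils, had a log2 fold change of -4.21, and Elane, neutrophil elastase, of -3.87. Of 11 tested B and T lineage genes 5 fell, among them the B cell gene Cd79a and the recombinase gene Rag1, and 2 rose, Ebf1 and Cd4, with a median of -0.81. The number that fell was 8 without old 3 and 2 with a mean count of at least 50. The Cd4 call was lost when young 1, young 3 or old 2 was left out (edgeR adjusted p = 0.0664, 0.0573 and 0.0741). Cd79a, a part of the B cell receptor, had a log2 fold change of -4.14, and Vpreb1 and Igll1, parts of the precursor receptor, had 39 and 47 counts in the young group and 0 in the old. The summed lymphoid level was 244 to 272 CPM in young libraries and 368 to 414 CPM in old ones, most of it from Ebf1, at 232 ± 10.4 and 377 ± 25.4 CPM (SD, n = 3), a gene that other cells also express. The part of blood cells in the Gfi1 result was not tested.

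Barhl1 (gene 54422, chromosome 2, 28907680 to 28917984) had 20, 31 and 32 counts in young 1, 2 and 3 and 26, 13 and 4 in old 1, 2 and 3. In CPM these were 0.560, 0.871 and 0.9746 for the young and 0.893, 0.436 and 0.138 for the old libraries. Old 1 lay within the young range and old 3 far below it. The exact 95% Poisson intervals, which cover counting error only, were 17.0 to 38.1 counts in old 1 and 1.09 to 10.2 in old 3 and did not meet. The log2 fold change of -0.71 ± 0.54 did not pass (95% interval -1.91 to 0.50; edgeR adjusted p = 0.291). It was -0.28 without old 3 and -1.47 without old 1, and neither passed (adjusted p = 0.620 and 0.0574). A fall to 0.266 and a rise to 1.41 times the young level both lie within the interval.

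Lhx3 (gene 16871, chromosome 2, 26200212 to 26208249) had 20, 17 and 19 counts in young 1, 2 and 3 and 11, 16 and 13 in old 1, 2 and 3. In CPM these were 0.560, 0.478 and 0.579 for the young and 0.378, 0.537 and 0.450 for the old libraries, and the groups overlapped. The log2 fold change of -0.24 ± 0.36 did not pass (95% interval -1.05 to 0.57; edgeR adjusted p = 0.598). Levels from 0.482 to 1.48 times the young one lie within that interval, and a smaller change was not detectable at this depth. The antisense gene Gm27196 shares 188 of the 3045 exonic bases of Lhx3 and has no entry under that symbol either.

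Rbm24 (gene 666794, chromosome 13, 46418102 to 46431099) had 158, 139 and 156 counts in young 1, 2 and 3 and 140, 109 and 106 in old 1, 2 and 3, the highest sum of the 6. In CPM these were 4.43, 3.91 and 4.75 for the young and 4.81, 3.66 and 3.67 for the old libraries. Old 1 was the highest of all 6 libraries and the other 2 old ones were the lowest. The log2 fold change was -0.11 ± 0.19 (edgeR adjusted p = 0.641), and its 95% interval of -0.52 to 0.30 does not hold the fitted values of Pou4f3 and Gfi1. The interval of Pou4f3, -1.57 to -0.41, overlaps it and that of Gfi1, -1.51 to -0.59, does not. A difference between these genes was not tested.

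Rbm24 is also a gene of muscle, and muscle RNA was present in both groups. Of 10 tested muscle genes 1 rose, the giant sarcomere gene Ttn (log2 fold change 1.53), and 2 fell, the myosin light chain gene Myl1 (-1.29) and skeletal actin, Acta1 (-2.78). The number that fell was 7 without young 1 and 4 without a filter on low counts. With library totals alone, upper-quartile scaling, TMM on protein-coding genes, FPKM or without young 3, 2 rose. With limma-voom the adjusted p of Acta1 was 0.0829, and it did not pass on FPKM either. The summed muscle level was 63.6 to 95.5 CPM in young libraries and 167 to 176 CPM in old ones, most of it from Ttn. Of the myogenic factors Myog had 0 counts and Myod1 had 1 count in all. The part of muscle in the Rbm24 value was not tested.

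Atoh1 (gene 11921, chromosome 6, 64729125 to 64731245), a gene of 1 exon, had 0, 1 and 5 counts in young 1, 2 and 3 and 0, 2 and 0 in old 1, 2 and 3. A count of 0 allows up to 3 counts, which are, per unscaled library total, 0.0809 CPM in young 1, 0.112 CPM in old 1 and 0.114 CPM in old 3. From 6 counts against 2 the ratio of young to old was 2.53, with an exact 95% interval of 0.453 to 25.6 that covers counting error only. A difference between the groups was not detectable at this depth.

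The proximal promoters of a regulator that fell, of the one with the widest spread and of one that did not pass are given here. They are RefSeq sequences of GRCm38.p6 on the strand of the gene, from 250 bases before to 50 bases after the first listed start. Capitals mark E-boxes, CANNTG, the sites of basic helix-loop-helix factors such as Atoh1, a motif that reads the same on both strands. RefSeq windows were found for 5 of the 6 genes, and Pou4f3 is named only.
Gfi1, chr5:107725756-107726055, minus strand: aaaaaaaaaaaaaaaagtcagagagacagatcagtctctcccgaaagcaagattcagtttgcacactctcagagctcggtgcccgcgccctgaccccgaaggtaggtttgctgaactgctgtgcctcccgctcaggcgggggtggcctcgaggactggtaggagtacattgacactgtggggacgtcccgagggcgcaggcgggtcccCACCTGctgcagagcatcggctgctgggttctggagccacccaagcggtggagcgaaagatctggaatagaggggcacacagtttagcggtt
Barhl1, chr2:28916619-28916918, minus strand: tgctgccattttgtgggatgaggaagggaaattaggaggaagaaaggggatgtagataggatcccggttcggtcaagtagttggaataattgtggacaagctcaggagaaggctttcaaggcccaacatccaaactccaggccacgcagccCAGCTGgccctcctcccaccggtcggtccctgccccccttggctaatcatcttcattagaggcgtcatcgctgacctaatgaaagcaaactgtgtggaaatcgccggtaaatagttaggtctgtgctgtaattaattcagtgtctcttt
Rbm24, chr13:46418050-46418349, plus strand: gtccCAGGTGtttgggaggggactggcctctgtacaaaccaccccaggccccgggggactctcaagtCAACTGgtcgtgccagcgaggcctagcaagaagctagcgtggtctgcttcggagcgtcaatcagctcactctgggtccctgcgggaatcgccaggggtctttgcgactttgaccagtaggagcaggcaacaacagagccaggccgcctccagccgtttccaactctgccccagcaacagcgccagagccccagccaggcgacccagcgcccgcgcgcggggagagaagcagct
The Gfi1 window holds 1 E-box, 42 bases before the start. Barhl1 holds 1, at 99 bases before it, and Rbm24 holds 2, at 246 and 183 bases. Distances are from the listed start of the window, which is not always the start of the gene entry given above. The Barhl1 window lies wholly within its entry, which runs to 28917984 on the minus strand. The Rbm24 entry begins at 46418102, inside its window, and the gene model of the annotation at 46418434, after it. The first windows of Atoh1 and Lhx3 hold none. An E-box is present in 72.3% of the 32851 promoter windows of the same length, so having one does not set a gene apart. The homeodomain core TAATTA, the same on both strands, was in the window of Barhl1 and in none of the other 4 first windows, against 5.29% of all windows. The GFI1 core AATC, searched on both strands, was in all 5 first windows and in 73.1% of all. No E-box in these windows overlapped a match to the other motifs, and a match describes letters, not binding.

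Levels of different genes can be compared only per length, so their order was read on the deposited FPKM (fragments per kilobase and per 1000000 fragments). In young libraries the mean FPKM was 2.59 ± 0.401 for Pou4f3, 1.497 ± 0.145 for Gfi1, 1.31 ± 0.127 for Rbm24, 0.257 ± 0.0404 for Barhl1, 0.257 ± 0.0351 for Lhx3 and 0.0267 ± 0.0379 for Atoh1 (SD, n = 3). On the deposited FPKM Pou4f3, at 2.28 to 3.04, lay above all others. The young values of Gfi1, 1.35 to 1.64, and of Rbm24, 1.17 to 1.41, overlapped. The length implied by the counts and FPKM of Pou4f3 was 921 bases, against 2360 for its longest coding transcript in the annotation. For Gfi1 these were 2396 and 2860 bases, and for Rbm24 3002 and 3086. The place of Pou4f3 above Gfi1 and Rbm24 thus hangs on the length used. Its summed young counts were 275, against 407 for Gfi1 and 453 for Rbm24. In old libraries the mean FPKM was 1.61 ± 0.296 for Pou4f3, 1.49 ± 0.228 for Rbm24, 0.867 ± 0.0751 for Gfi1, 0.270 ± 0.04 for Lhx3, 0.157 ± 0.103 for Barhl1 and 0.0133 ± 0.0231 for Atoh1. There Pou4f3, at 1.30 to 1.89, and Rbm24, at 1.35 to 1.75, overlapped, and every Gfi1 value, 0.79 to 0.94, lay below them. Lhx3 and Barhl1 overlapped in both groups.

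Ratios of counts between the regulators within a library need no scaling between libraries. They were computed after the values had been seen and carry no test. Of the 10 pairs of the 5 tested genes, the 3 described first had ratios that did not overlap between young and old. The share of such ratios over gene pairs in general was not computed, and nothing about the regulators is read from the count. Per count of Rbm24 there were 0.5, 0.640 and 0.686 counts of Pou4f3 in young 1, 2 and 3 and 0.329, 0.294 and 0.368 in old 1, 2 and 3. For Gfi1 per count of Rbm24 the ratios were 0.753, 1.07 and 0.891 in young and 0.4, 0.468 and 0.557 in old libraries. Gfi1 per count of Lhx3 was 5.95, 8.76 and 7.32 in young and 5.09, 3.19 and 4.54 in old libraries. In all 3 pairs each old library lay below each young one. The ratio of Pou4f3 to Gfi1 overlapped, at 0.677 ± 0.0870 in the young and 0.703 ± 0.104 in the old group (SD, n = 3).

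To set the regulators against hair cell RNA, the fit was repeated with libraries scaled to the median ratio of the 19 tested core markers. On that scale Pou4f3 and Gfi1 no longer passed. The log2 fold change was 0.02 ± 0.43 for Pou4f3 (95% interval -0.81 to 0.85; edgeR adjusted p = 0.967) and -0.04 ± 0.39 for Gfi1 (95% interval -0.81 to 0.72; adjusted p = 0.919), intervals too wide to show that they moved as the markers did. Barhl1, at 0.28 ± 0.55 (adjusted p = 0.649), and Lhx3, at 0.75 ± 0.58 (adjusted p = 0.228), did not pass either. Rbm24 passed, at 0.86 ± 0.35 (95% interval 0.18 to 1.55; edgeR adjusted p = 0.0199), the single call among the 5. This scale called 73.5% of all tested genes, 71.4% as higher and 2.12% as lower, and the median over all genes was 0.99, so Rbm24 lay near genes in general. The Rbm24 call was lost without young 2 (0.70, adjusted p = 0.225), without young 3 (0.63, adjusted p = 0.116), without old 1 (0.83, adjusted p = 0.0683) and without old 2 (0.90, adjusted p = 0.0521). Libraries were also scaled to the tested genes of the full list, 36 of 40 hair cell markers. Rbm24 was then at 0.41 (adjusted p = 0.115), Pou4f3 at -0.46 (adjusted p = 0.167) and Gfi1 at -0.52 (adjusted p = 0.0724). The core list was chosen with earlier results of these data known. With TMM scaling none of its tested genes rose, while 8 of the full list did. Values relative to hair cell markers thus depend on the list used.

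**Figure D2:**
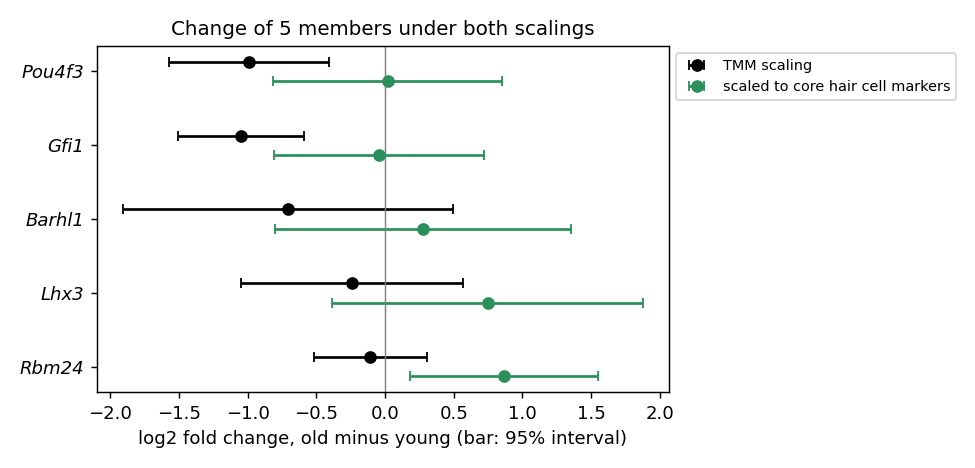
Log2 fold change, old against young, with its 95% interval for the 5 tested regulators, with TMM scaling and with scaling to the core hair cell markers. Pou4f3 and Gfi1 lie near -1 with TMM scaling and near 0 against the markers, and Rbm24 lies at -0.11 and 0.86.

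Plain ratios to the summed core marker counts gave each library's own value. Per 1000 marker counts Pou4f3 had 10.1, 9.35 and 10.0 counts in young 1, 2 and 3 and 9.89, 7.48 and 8.85 in old 1, 2 and 3, and the groups overlapped. Gfi1 had 15.3, 15.7 and 12.99 in young and 12.04, 11.9 and 13.4 in old libraries, with old 3 above young 3. Rbm24 had 20.3, 14.6 and 14.6 in young and 30.1, 25.5 and 24.0 in old libraries, and each old value lay above each young one. The share of all genes that do so per marker count was not computed. With libraries scaled to the core markers 71.4% of all tested genes were called higher. Exact two-sided permutation gave p = 0.2 for Pou4f3, 0.2 for Gfi1 and 0.1 for Rbm24, the last the smallest possible. Barhl1 had 2.94 ± 0.348 in the young and 3.18 ± 2.34 in the old group, and Lhx3 2.04 ± 0.454 and 3.02 ± 0.689 (SD, n = 3 per group).

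**Figure D3:**
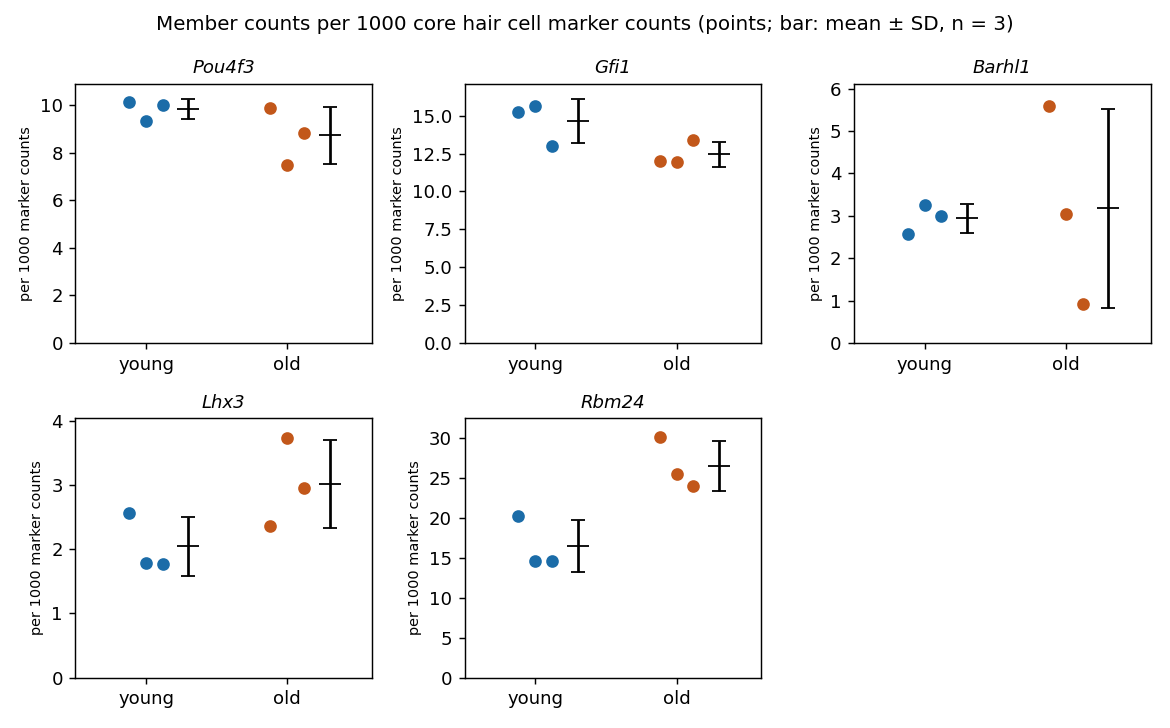
Counts of each tested regulator per 1000 summed counts of the core hair cell markers in each library (points), with the mean and SD of 3 libraries. Young and old points overlap for Pou4f3, Gfi1, Barhl1 and Lhx3, while the old points of Rbm24 lie above its young ones.

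The core markers themselves did not fall evenly. Of 19 tested 13 fell and none rose, with a median log2 fold change of -0.81. With library totals alone 11 fell and 1 rose. The full list of 40 hair cell markers, which includes the core, moved both ways. Of its 36 tested genes 22 fell and 8 rose, with a median of -0.62. On log2(FPKM + 1) 13 of these fell. The 8 that rose with TMM scaling are all outside the core, while the markers named below are all in it. Ocm (-2.33) and Slc26a5 (-1.78), a calcium buffer and the motor protein of outer hair cells, had larger falls than Pou4f3 and Gfi1, as did Pjvk (-2.15) and the bundle gene Strc (-1.90). Otof (-0.79) and Slc17a8 (-0.78), of the inner hair cell synapse, had smaller ones. These differences between genes were not tested. Pjvk made up at most 0.346% of the core counts of a library and ran from -2.55 to -0.53 over the alternatives. Otof made up 22.8 to 27.1% and Myo7a, a bundle myosin, 18.0 to 27.0% of the summed counts of single libraries.

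Relatives of the regulators took several courses. Of 7 tested 3 rose and 2 fell, with a median log2 fold change of 0.35; with library totals alone 5 rose and 2 fell. Gfi1b, the relative of Gfi1 in red cell and platelet precursors, had 80, 96 and 30 counts in young 1, 2 and 3 and 1, 3 and 3 in old 1, 2 and 3, and fell by 4.55 on the log2 scale (SE 0.58; edgeR adjusted p = 0.000173). Rbm38, the closest relative of Rbm24, fell from 13.6 ± 2.71 to 5.46 ± 1.19 CPM (SD, n = 3; -1.32 ± 0.19 on the log2 scale; adjusted p = 0.000338), while Rbm20, a splicing factor of muscle, did not pass (0.05 ± 0.09; adjusted p = 0.695). Rbm20 passed as higher with library totals alone (0.32; adjusted p = 0.0233).

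Pou4f1, the relative of Pou4f3 in spiral ganglion neurons, rose from 7.66 ± 1.53 to 11.7 ± 0.521 CPM (SD, n = 3; 0.61 ± 0.16; edgeR adjusted p = 0.00832). Pou4f2 did not pass (0.35 ± 0.15; adjusted p = 0.0740), but passed in 7 of 18 alternatives, among them library totals alone (0.62; adjusted p = 0.0125) and without young 1 (adjusted p = 0.0205). Atoh8, a distant relative of Atoh1, rose from 6.80 ± 0.238 to 13.3 ± 0.307 CPM (0.97 ± 0.12; adjusted p = 0.000120). Lhx1 rose from 35 to 81 counts per group (1.45 ± 0.40; adjusted p = 0.0116), and missed the threshold without young 2 (adjusted p = 0.0689). Atoh7, Neurod1, Neurog1, Barhl2 and Lhx2 had too few counts for a test, and Lhx4, the sister gene of Lhx3, had 0.

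Partners and modifiers of the regulators were near level as a list. Of 17 tested 6 rose and 3 fell, with a median of -0.02; with library totals alone 10 rose and 0 fell. Ldb2, a cofactor of LIM-homeodomain proteins such as Lhx3, rose by 0.84 ± 0.14 (log2; edgeR adjusted p = 0.000807). Tcf4, an E protein with which factors like Atoh1 pair, rose by 0.47 ± 0.07 (adjusted p = 0.000372). Isl1, a LIM-homeodomain factor, rose by 0.45 ± 0.12 (adjusted p = 0.0118), and missed the threshold without young 2 (adjusted p = 0.0602) or young 3 (adjusted p = 0.0504). The 3 that fell were Id2 (-0.57) and Id3 (-0.28), inhibitors of basic helix-loop-helix factors, and Kdm1a (-0.27), a demethylase that works with GFI1. None of the 3 passed with library totals alone (adjusted p = 0.0776, 0.956 and 0.995). Id3 lost its call in 9 of 18 alternatives, with adjusted p = 0.0939 when young 2 was left out, 0.0572 for young 3 and 0.0996 for old 3. The number of partners that rose was 3 without young 2 or young 3, and the number that fell was 5 without young 1.

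Other transcription factors, listed for hair cells and the sensory epithelium, rose more often than they fell. Of 27 tested 14 rose and 2 fell, with a median of 0.27; with library totals alone 19 rose and 1 fell. There were 4 falls without young 2 or old 3 and 4 without a filter on low counts. Sox2, a factor of supporting cells, rose by 1.19 ± 0.13, and Hes1, a Notch effector that represses Atoh1, by 1.10 ± 0.14 (edgeR adjusted p = 7.07e-05 and 0.000188). Tbx2, a factor of inner hair cell fate, rose from 137 ± 9.57 to 256 ± 21.6 CPM (0.91 ± 0.09; adjusted p = 4.23e-05). Esrrb, a nuclear receptor known from the stria vascularis, which is not sensory epithelium, fell from 436 ± 72.4 to 220.3 ± 9.81 CPM (-0.98 ± 0.12; adjusted p = 0.000112). Heyl, another Notch effector, fell (-0.48), but did not pass with library totals alone (adjusted p = 0.161) or without old 2 (adjusted p = 0.0544).

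These factors are also made by cells other than hair cells. Of 19 tested supporting cell markers 7 fell and 5 rose, Sox2, Hes1, Otog, Ngfr and Ano1, of which Sox2 and Hes1 stand in both lists; with library totals alone 4 fell and 8 rose. On FPKM 1 fell, and 3 rose without young 2. Ano1 and Ngfr missed the threshold without young 2 (adjusted p = 0.0561 and 0.0503), Ano1 also without old 2 (adjusted p = 0.0642) and Ngfr also without old 3 (adjusted p = 0.0514). The summed level of the supporting cell markers was 4547 to 5831 CPM in young libraries and 4082 to 4100.3 CPM in old ones. Of 18 spiral ganglion neuron markers 15 rose and 3 fell, Pvalb, Syt1 and Calb2. Pvalb and Calb2 also stand in the full hair cell list, and the lists share other genes, among them Isl1 and Srrm4. The neuron markers summed to 2392 to 3191 CPM in young and 3789 to 4255 CPM in old libraries. With library totals alone or on FPKM 1 of them fell. Syt1 lost its call in 6 of 18 alternatives, with adjusted p = 0.0713 when young 2 was left out, 0.0506 for young 3 and 0.0553 for old 1, and Calb2 in 5 of 18, among them without old 2 (adjusted p = 0.0570). The part of these markers in the values of the factors was not tested.

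Genes reported downstream of Atoh1 or Pou4f3 moved both ways. Of 13 tested 5 rose and 3 fell, with a median of 0.04; with library totals alone 7 rose and 3 fell. There were 5 falls without old 2 and 3 rises without young 2 or young 3. Chrna10, a subunit of the efferent acetylcholine receptor and also a core marker, fell by 1.55 (log2; SE 0.27; edgeR adjusted p = 0.000927). Myo6, a motor at the bundle base, and Anxa4, an annexin, fell by 0.69 and 0.65 (adjusted p = 0.000187 and 0.00128). The nuclear receptor gene Nr2f2 rose by 0.71 ± 0.08 and the splicing factor gene Srrm4 by 0.68 ± 0.13 (adjusted p = 8.69e-05 and 0.00154). Bdnf, a neurotrophin, and Dll1 and Jag2, ligands of Notch, rose by 0.82, 0.76 and 0.47, but Bdnf and Jag2 missed the threshold without young 2 (adjusted p = 0.0517 and 0.111) and Dll1 without young 3 (adjusted p = 0.0759) or old 3 (adjusted p = 0.0533). Jag2 also missed it without young 3, old 1 or old 2.

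Splicing regulators other than Rbm24 mostly rose. Of 13 tested 8 rose and 1 fell, with a median of 0.57; with library totals alone 10 rose and 0 fell. Celf4 (1.43 ± 0.14), Rbfox1 (1.42 ± 0.17) and Nova1 (1.00 ± 0.12), RNA-binding proteins of neurons, and Srrm3 (1.30 ± 0.11), a regulator of microexons, were the 4 with the largest rises (edgeR adjusted p = 4.57e-05, 0.000114, 0.000144 and 2.69e-05). Ptbp1, which represses neuronal exons, fell (-0.33), but did not pass with library totals alone (adjusted p = 0.614) or without young 2 or old 2 (adjusted p = 0.0620 and 0.0719). A total of 2 splicing regulators fell without young 1. Neuron markers rose in the same libraries, and their part was not tested.

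Central glia and hindbrain genes were checked because Atoh1 and Barhl1 act in the hindbrain. Of 12 tested 5 fell, the glial genes Mog, Olig1, Mobp, Gfap and Aqp4, and 1 rose, Cbln1 of cerebellar granule cells. Without a filter on low counts 8 fell, and with library totals alone 2 rose. Mog, a myelin gene of central glia, had 546, 90 and 53 counts in young 1, 2 and 3 and 2, 0 and 0 in old 1, 2 and 3, so young 1 held most of it. The sum of the list was 944 to 1019 CPM in young libraries and 819 to 929 CPM in old ones, most of it from Fat2 and Zic2. Among young libraries Barhl1 was lowest in young 1, and the part of hindbrain tissue in its values was not tested.

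**Figure D4:**
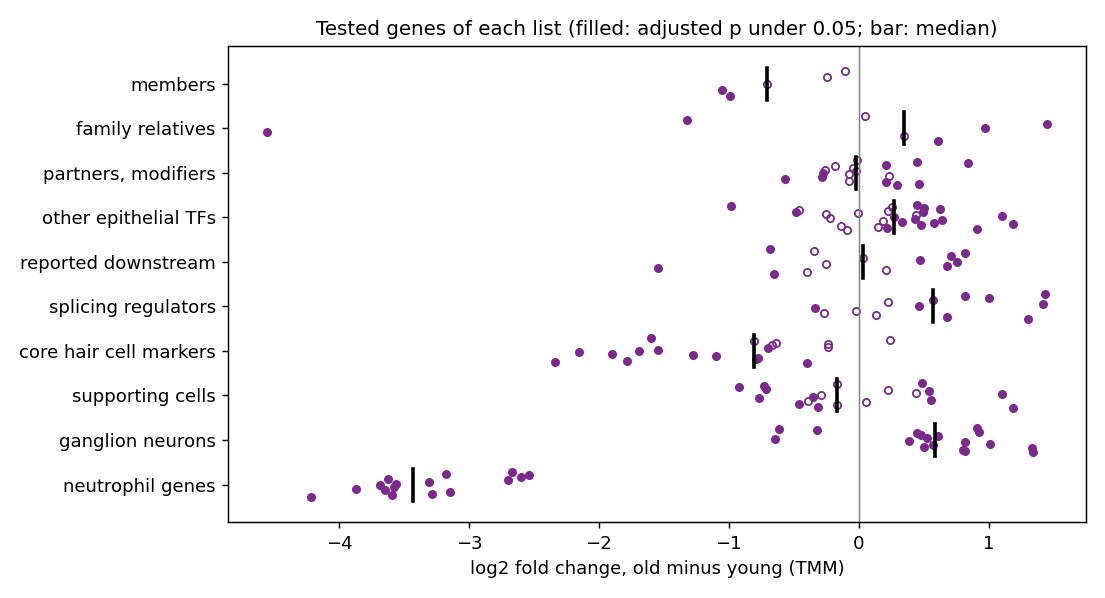
Log2 fold change, old against young (TMM scaling), of each tested gene by list, with the median of each list drawn. Hair cell markers are shown for the core only, and the lymphoid, muscle and central lists are not drawn. The median of the 5 tested regulators, -0.71, is the value of Barhl1, which did not pass and moved from -1.47 without old 1 to -0.28 without old 3. The median of the neutrophil genes lies lowest, at -3.43.

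Genes with the most similar profile over the 6 libraries were found by the distance between log2 CPM values centred on each gene's mean, among 14798 candidates. They were Lsm10, Errfi1 and Chid1 for Pou4f3, at distances of 0.132 to 0.149, and Psma6, Mlana and Fam98b for Gfi1, at 0.0602 to 0.0741. Kcp, Prokr1 and Ccdc69 came nearest to Barhl1 (0.169 to 0.281), Zkscan17, Rcl1 and Acvr1 to Lhx3 (0.0579 to 0.0778) and Gpn3, Ttc24 and Slc66a1 to Rbm24 (0.113 to 0.129). Many genes lay almost as near: within 1.5 times the distance of the third there were 38 genes for Pou4f3, 11 for Gfi1, 33 for Barhl1, 16 for Lhx3 and 53 for Rbm24, the 3 named ones included. None of the named genes is in a list used here.

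Pou4f3 and Gfi1 passed in each of the 18 alternatives run with other scalings, filters, tests and left-out libraries. The log2 fold change ran from -1.14 to -0.46 for Pou4f3, with edgeR, DESeq2 or limma adjusted p of 0.00464 to 0.0412. For Gfi1 it ran from -1.18 to -0.42, with adjusted p of 0.000178 to 0.0136. The values nearest 0 were those on log2(FPKM + 1), a scale that understates the change of low genes. Smaller falls than with TMM were also seen with library totals alone, at -0.71 for Pou4f3 and -0.77 for Gfi1. On log2(FPKM + 0.1) Pou4f3 was at -0.66 and Gfi1 at -0.72. Barhl1, Lhx3 and Rbm24 passed in none of the alternatives that tested them. The sign of Lhx3 and Rbm24 turned with library totals alone, to 0.03 and 0.17.

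**Figure D5:**
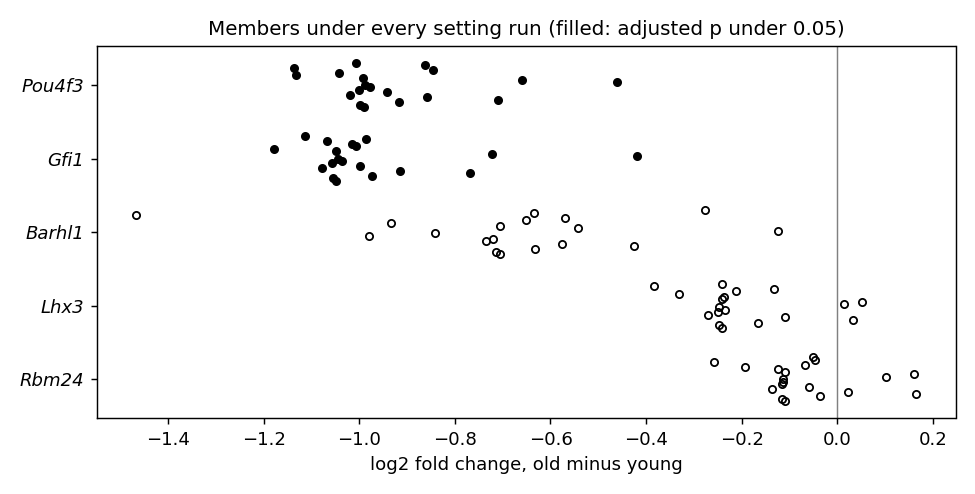
Log2 fold change, old against young, of the 5 tested regulators in the reported fit and in each alternative (points). All points of Pou4f3 and Gfi1 lie below -0.4, and those of Barhl1 spread from -1.47 to -0.12.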

How the data were processed

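The authors deposited unscaled estimated counts for each gene, of which 20.2% are not whole and were rounded, and FPKM values, used for levels between genes and in alternatives. Per the submitters' processing notes the build was GRCm38.p6; the sources used here do not give aligner, counter or strandedness. Of 34395 gene entries 28251 matched RefSeq by gene number; exons and overlaps came from GENCODE models of that build. The 8228 circular RNA entries were left out.

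Young and old were compared with edgeR 4.0.16 in R 4.3.3 (filterByExpr, TMM, quasi-likelihood F test, Benjamini-Hochberg adjustment at 0.05); each SE follows from the fold change and its F. The fit was tested on simulated data. Alternatives used other scalings and filters, limma 3.58.1, DESeq2 1.42.0, FPKM with pseudocounts of 1 and 0.1, a replicate block, and each library left out. Totals ran from 26245416 to 39433584 counts, and floors of 3 counts and count intervals cover counting error only. Python 3.11.15, pandas 2.3.3 and matplotlib 3.10.9 made tables and plots.

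Members, lists and tests were chosen with earlier results of these data known. The text names every member and tested relative, up to 4 called genes per list with the largest changes, the genes where 5 or fewer of a list moved one way, and 3 nearest profiles per member. Otof, Slc17a8, Myo7a, Vpreb1, Igll1, Myog, Myod1, Fat2, Zic2, Cd79a and Myo3a were named after their values were seen.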

Additional observations from a re-analysis of the deposited data

How the results depend on the processing

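In all 18 alternatives 2 regulators were lower and 0 higher in old. Library totals alone moved the median log2 fold change of all genes by 0.274, with 8259 genes higher and 2920 lower in place of 5427 and 5496. On log2(FPKM + 1) and log2(FPKM + 0.1) 2758 and 2792 genes were lower. Of the called genes 49.7% were higher in the reported fit, 73.9% for library totals alone, 62.1% when TMM used protein-coding genes (median shift 0.133) and 73.7 and 73.9% on FPKM. List genes lower in old numbered 68, or 45 on log2(FPKM + 1). With library totals alone, log2(FPKM + 1) and log2(FPKM + 0.1) in turn, Lhx3 was at 0.0329, 0.0151 and 0.0520, Rbm24 at 0.17, 0.10 and 0.16, and Kdm1a at 0.000757, 0.145 and 0.151. Rbm24 was at 0.0233 when TMM used protein-coding genes. The cause was not tested.

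Relative to hair cell markers, Pou4f3 was at -0.17 when scaled to their summed counts and at -0.46 over the full list, where Barhl1 was at -0.17, Rbm24 at 0.41 and 0 regulators, in place of 1, were higher. Without single libraries Pou4f3 ran from -0.12 to 0.12, Gfi1 from -0.27 to 0.0373, Barhl1 from -0.38 to 0.76 and Rbm24 from 0.63 to 1.08, with 0 to 1 regulators higher. The cause was not tested.

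Like-numbered libraries did not deviate together (correlations of -0.10, 0.04 and -0.09 over 20157 genes), and 1 of 3 young libraries correlated best with its own number. A pairing by number was not seen and is not stated in the labels, but so few libraries cannot exclude it. With the replicate block Pou4f3 was at -0.99 and Gfi1 at -1.04, both passed, and 4860 genes were higher and 5079 lower. Relative to hair cell markers Rbm24 was at 0.88 with the block (adjusted p = 0.0637), which left 0 regulators higher. Depth limits Barhl1 and Lhx3, at 4 to 32 counts a library, and Atoh1, at 8 counts in all. Barhl1 and Lhx3 had too few counts for the filter on a mean count of 50.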

Other observations

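Myo3a, a myosin of hair cell stereocilia, was listed far above the other hair cell markers, and it is not among the core markers used in the text. Its mean was 9264 ± 897 CPM for the young and 7242 ± 977 CPM for the old group (SD, n = 3 each), while all 40 markers of the full list together summed to 9928 to 11606 CPM and 7991 to 9808 CPM. Its deposited FPKM ran from 5678 to 7204 over the 6 libraries, against 1.30 to 3.04 for Pou4f3.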
